A study of Mus musculus with 21 samples.

Results

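The 8 genes described here are those of the striatum and its dopamine supply that were picked by symbol, Drd1, Drd2, Adora2a, Ppp1r1b, Rgs9, Pde10a, Th and Slc6a3, and all 8 were matched to an Ensembl identifier among the 55401 genes of the count table. RNA was measured in the forebrains of 21 mice in 6 groups. E2H, E3H and E4H mice (3 of each) are homozygous for human APOE2, APOE3 or APOE4 placed at the mouse Apoe locus on a C57BL6 background, and were 9 to 10 months old. The 3 groups with tau (4 mice of each), PS/E2H, labelled PE2H, PS/E3H, labelled PE3H, and PS/E4H, labelled PE4H, have the same APOE alleles and are heterozygous for the P301S human tau transgene of line PS19, kept on a B6/C3H background, and they were taken when their hindlimbs were paralyzed. Every mouse therefore lacks mouse Apoe, and tau genotype, paralysis, age at death and strain background cannot be told apart. All mice were male except 1 E4H, 1 PS/E2H and 2 PS/E4H mice, and the labels do not say which. The question taken up here is whether these genes differed with tau, against the differences in how much striatum or midbrain each dissected forebrain held.

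The striatum is built mainly of projection neurons that receive dopamine from axons of midbrain neurons. One class carries the D1 receptor, which raises cyclic AMP, and sends the direct pathway, while the other carries the D2 receptor, which lowers cyclic AMP, together with the adenosine receptor encoded by Adora2a, and sends the indirect pathway. The cell bodies that make tyrosine hydroxylase and the dopamine transporter mostly lie in the midbrain, so their messenger RNA reaches a forebrain sample only as far as the cut includes them or other dopamine neurons, such as those of the olfactory bulb and hypothalamus.

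The members lie on 6 chromosomes of GRCm38 and are all protein coding. Drd1 (chr13:54051183-54055705, minus strand) and Slc6a3 (chr13:73536747-73578672, plus strand) share a chromosome, and so do Ppp1r1b (chr11:98348404-98357796, plus strand) and Rgs9 (chr11:109225355-109298129, minus strand). Drd2 lies at chr9:49340627-49408177 (plus strand), Adora2a at chr10:75316877-75334784 (plus strand), Pde10a at chr17:8525372-8986648 (plus strand) and Th at chr7:142892752-142931128 (minus strand). Of the exonic bases of Ppp1r1b, 460 of 2928 are shared with the antisense transcript 1700003D09Rik, so its counts are uncertain to the extent that the counting ignored strand. Pde10a overlaps 3 genes on the other strand with no exonic base in common.

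Start regions of 300 bases, 250 before and 50 after the RefSeq start site on GRCm38.p6, were available for 6 of the 8 members. Those of the pair of dopamine neuron genes and of the pair of dopamine receptor genes are shown. The values within each pair moved together from mouse to mouse, though Drd2 moved slightly more closely with Rgs9. The RefSeq start site used for Th, base 142899995, lies inside the gene span given above, whose upstream end is base 142931128. The capitals mark 2 searched motifs on either strand, the cyclic AMP response element TGACGTCA and the GC box GGGCGG, whose match on the opposite strand reads CCGCCC.
Th, chr7:142899946-142900245, minus strand: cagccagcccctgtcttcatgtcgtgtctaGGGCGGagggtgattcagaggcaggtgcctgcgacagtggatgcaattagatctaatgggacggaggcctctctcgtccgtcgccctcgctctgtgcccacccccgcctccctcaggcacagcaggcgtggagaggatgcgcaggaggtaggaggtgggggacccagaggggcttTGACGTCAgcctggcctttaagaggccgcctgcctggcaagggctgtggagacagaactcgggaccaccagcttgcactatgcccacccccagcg
Slc6a3, chr13:73536497-73536796, plus strand: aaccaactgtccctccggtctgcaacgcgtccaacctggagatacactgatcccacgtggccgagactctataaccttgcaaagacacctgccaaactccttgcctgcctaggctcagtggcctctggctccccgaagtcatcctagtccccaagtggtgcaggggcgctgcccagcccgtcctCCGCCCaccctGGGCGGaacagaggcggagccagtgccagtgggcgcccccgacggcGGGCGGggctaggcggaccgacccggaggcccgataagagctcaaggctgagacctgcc
Drd1, chr13:54055609-54055908, minus strand: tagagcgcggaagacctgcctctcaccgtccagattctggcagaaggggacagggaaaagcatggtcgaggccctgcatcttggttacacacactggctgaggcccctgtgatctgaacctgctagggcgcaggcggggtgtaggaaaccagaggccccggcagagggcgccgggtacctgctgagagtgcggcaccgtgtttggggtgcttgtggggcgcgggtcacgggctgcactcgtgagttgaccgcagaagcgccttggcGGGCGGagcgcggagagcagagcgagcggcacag
Drd2, chr9:49340153-49340452, plus strand: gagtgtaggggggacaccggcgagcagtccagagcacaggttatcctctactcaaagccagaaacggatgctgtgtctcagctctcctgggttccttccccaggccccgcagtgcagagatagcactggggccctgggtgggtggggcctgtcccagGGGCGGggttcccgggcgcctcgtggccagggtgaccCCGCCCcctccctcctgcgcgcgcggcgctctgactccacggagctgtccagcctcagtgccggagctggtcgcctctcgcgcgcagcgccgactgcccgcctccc
The cyclic AMP response element, present in 1.79% of 32851 start regions of this length, was found in Th alone of these 4, from base -45 to base -38 before the start site. The GC box, present in 35.7% of all start regions, occurred in each of the 4, at 3 places in Slc6a3, 2 in Drd2 and 1 each in Th and Drd1. Also searched were the TATA box TATAAA (13.6% of start regions) and the NGFI-B response element AAAGGTCA (1.51%), and neither was in these 4 windows. The window of Rgs9, not shown, held a TATA box from base -195 to base -190.

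The libraries held 59265459 to 75932183 counts, with a median of 63751715. Th was counted 180 to 1679 times and Slc6a3 38 to 2489 times per library, which leaves the spread between mice and not counting as the main limit. In a principal component analysis of all tested genes, replicate 2 of E2H stood apart on the second component (9.49% of the variance) and replicate 4 of PS/E2H on the third (6.35%). On the second component E2H replicate 2 had a score of 77.8, followed by PS/E2H replicates 2 and 4 at 52.3 and 45.8. Levels below are counts divided by the TMM-scaled library size (CPM), which serve to compare mice for 1 gene. Compared between genes, per length, Ppp1r1b was highest at 105 ± 17.2 FPKM (the deposited fragment counts scaled to transcript length and library size, mean ± SD, n = 21 mice), with mice from 74.4 to 139. Drd2 followed at 13.9 ± 2.37 FPKM, Adora2a at 12.9 ± 2.48, Pde10a at 11.6 ± 2.56, Drd1 at 9.59 ± 1.77, Rgs9 at 9.09 ± 1.503, Th at 5.12 ± 2.46 and Slc6a3 at 4.36 ± 2.82 FPKM. No mouse had Ppp1r1b within the range of another member, and below it the ranges of neighbours in this order overlapped.

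None of the 8 genes passed the test for tau in any line or over all lines. The test is the quasi-likelihood test of edgeR, with p-values adjusted by the method of Benjamini and Hochberg over all genes tested, passed at an adjusted p under 0.05. It called 0.752% of all tested genes for PS/E2H against E2H mice, 5.37% for PS/E3H against E3H, 15.6% for PS/E4H against E4H and 21% for the tau effect over the 3 lines (11.4% higher and 9.63% lower in PS19 mice), so a count of 0 in 8 stood beside a background of about 1 gene in 5 in the pooled fit. DESeq2 and limma on log2(FPKM + 1) also passed 0 members in these 4 comparisons. At an unadjusted p under 0.05 edgeR gave 0, 0, 1 and 1 members, and DESeq2 1, 0, 0 and 1. In every 1 of the 24 combinations of gene and line the ranges of the PS19 and the parental mice overlapped. The share of all genes with such an overlap was not computed, so this describes the mice and is not a result particular to the members.

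Among the receptors, Drd1, which encodes the receptor of the direct pathway, was lower on average in PS19 mice of all lines without passing. E2H mice had 44.7, 30.7 and 40.5 CPM and PS/E2H mice 36.4, 32.8, 27.99 and 25.2 CPM. E3H mice had 41.4, 38.6 and 43.6 CPM and PS/E3H mice 35.6, 35.7, 43.2 and 39.98 CPM. E4H mice had 43.1, 43.0 and 37.5 CPM and PS/E4H mice 23.8, 41.9, 48.8 and 37.5 CPM. The lowest mouse of all was replicate 1 of PS/E4H and the highest another of the same group, so the PS/E4H mice spanned the values of every other group. The log2 fold change was -0.18 over the lines (SE 0.10, 95% interval -0.39 to 0.02, adjusted p = 0.205), and -0.35, -0.11 and -0.12 within the APOE2, APOE3 and APOE4 lines.

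Drd2, the receptor of the indirect pathway, had nearly the same mean in 9 parental and 12 PS19 mice, 38.2 ± 4.71 and 38.8 ± 7.93 CPM (SD). E2H mice had 46.7, 34.02 and 38.5 CPM and PS/E2H mice 50.7, 44.1, 35.2 and 32.7 CPM. E3H mice had 40.3, 37.6 and 43.3 CPM and PS/E3H mice 30.6, 32.7, 41.9 and 38.2 CPM. E4H mice had 37.7, 32.2 and 33.6 CPM and PS/E4H mice 27.1, 48.7, 49.1 and 34.7 CPM. The PS19 range enclosed the parental range in the APOE2 and APOE4 lines, and no group stood apart. The pooled log2 fold change was 0.02 (SE 0.10, 95% interval -0.20 to 0.24, adjusted p = 0.919).

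Adora2a, the adenosine receptor of indirect pathway neurons, ranged from 36.0 to 52.2 CPM in parental and from 25.6 to 58.9 CPM in PS19 mice, so the PS19 range enclosed the parental one on both sides. Its pooled log2 fold change was -0.06 (SE 0.12, 95% interval -0.32 to 0.20, adjusted p = 0.803).

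Of the signalling genes, Ppp1r1b encodes DARPP-32, a phosphatase inhibitor that integrates dopamine signals in both projection neuron classes. E2H mice had 366, 356 and 298 CPM and PS/E2H mice 421, 404, 292 and 327 CPM. E3H mice had 326, 278 and 313 CPM and PS/E3H mice 322, 295, 324 and 404 CPM. E4H mice had 298, 290 and 258 CPM and PS/E4H mice 235, 437, 453 and 320 CPM. The mean was higher in the PS19 mice of each line, yet a PS19 mouse lay below the lowest parental mouse in the APOE2 and APOE4 lines. The pooled log2 fold change was 0.19 (SE 0.10, 95% interval -0.01 to 0.40, adjusted p = 0.181), and 0.35 in the APOE4 line (adjusted p = 0.251). Without PS/E4H replicate 1, the mouse at 235 CPM, the APOE4 value was 0.52 (adjusted p = 0.0233).

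Rgs9, a regulator that shuts off G protein signals of the D2 receptor, ranged from 51.6 to 73.0 CPM in parental and from 44.1 to 76.6 CPM in PS19 mice, with a pooled log2 fold change of -0.10 (SE 0.10, adjusted p = 0.533). Pde10a, a phosphodiesterase that breaks down cyclic nucleotides in projection neurons, ranged from 96.1 to 215 CPM in parental and from 106 to 197 CPM in PS19 mice, with a pooled log2 fold change of -0.15 (SE 0.11, adjusted p = 0.411). Its lowest mouse was E2H replicate 2, which also stood apart in the principal component analysis. The 95% intervals ran from -0.31 to 0.11 for Rgs9 and from -0.39 to 0.09 for Pde10a.

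The dopamine neuron genes gave the largest differences and the largest errors. For Th, tyrosine hydroxylase, the rate-limiting enzyme of dopamine synthesis, E2H mice had 22.1, 11.3 and 10.6 CPM and PS/E2H mice 11.47, 19.96, 16.4 and 13.9 CPM. E3H mice had 4.18, 13.8 and 3.49 CPM and PS/E3H mice 6.92, 15.5, 12.4 and 18.6 CPM. E4H mice had 6.47, 2.39 and 14.8 CPM and PS/E4H mice 18.4, 27.7, 15.8 and 10.5 CPM. In all, 4 parental mice, 2 in E3H and 2 in E4H, lay below every PS19 mouse, and the remaining 5 lay among them. The pooled log2 fold change was 0.71 (SE 0.30, 95% interval 0.08 to 1.35, unadjusted p = 0.0272, adjusted p = 0.1003). Within lines it was 0.07 for APOE2, 0.90 for APOE3 (adjusted p = 0.297) and 1.19 for APOE4 (SE 0.51, unadjusted p = 0.0413, adjusted p = 0.146).

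Slc6a3, the dopamine transporter, which returns released dopamine to the axon, repeated this arrangement over a wider range. E2H mice had 33.0, 12.6 and 12.4 CPM and PS/E2H mice 11.51, 22.6, 21.5 and 20.4 CPM. E3H mice had 0.976, 13.4 and 0.713 CPM and PS/E3H mice 6.65, 12.5, 19.1 and 23.6 CPM. E4H mice had 4.60, 0.504 and 30.3 CPM and PS/E4H mice 26.6, 37.4, 23.0 and 11.4 CPM. The 4 parental mice lowest for Th were also the 4 lowest for Slc6a3, the highest parental mouse was 65.5 times the lowest, and the highest PS19 mouse was 5.63 times the lowest PS19 mouse. The pooled log2 fold change was 0.86 (SE 0.52, 95% interval -0.25 to 1.97, adjusted p = 0.277), with -0.04, 1.63 and 1.05 in the APOE2, APOE3 and APOE4 lines. In bulk tissue, fewer dopamine neurons in the sample and less RNA per neuron cannot be told apart.

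Single mice decided the calls for these genes. Without E3H replicate 2, the one E3H mouse with over 10 CPM of either gene, Slc6a3 passed for PS/E3H against E3H (log2 fold change 4.18, adjusted p = 0.0175) and so did Th (1.79, adjusted p = 0.0465). Without E4H replicate 3, Slc6a3 and Th passed for PS/E4H against E4H (3.28, adjusted p = 0.0291, and 2.03, adjusted p = 0.0266). Over all lines Th passed without E2H replicate 1 (0.89, adjusted p = 0.0372) or without E3H replicate 2 (0.91, adjusted p = 0.0434). No other omission of 1 mouse made a member pass for tau, apart from Ppp1r1b as given above.

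**Figure D1:**
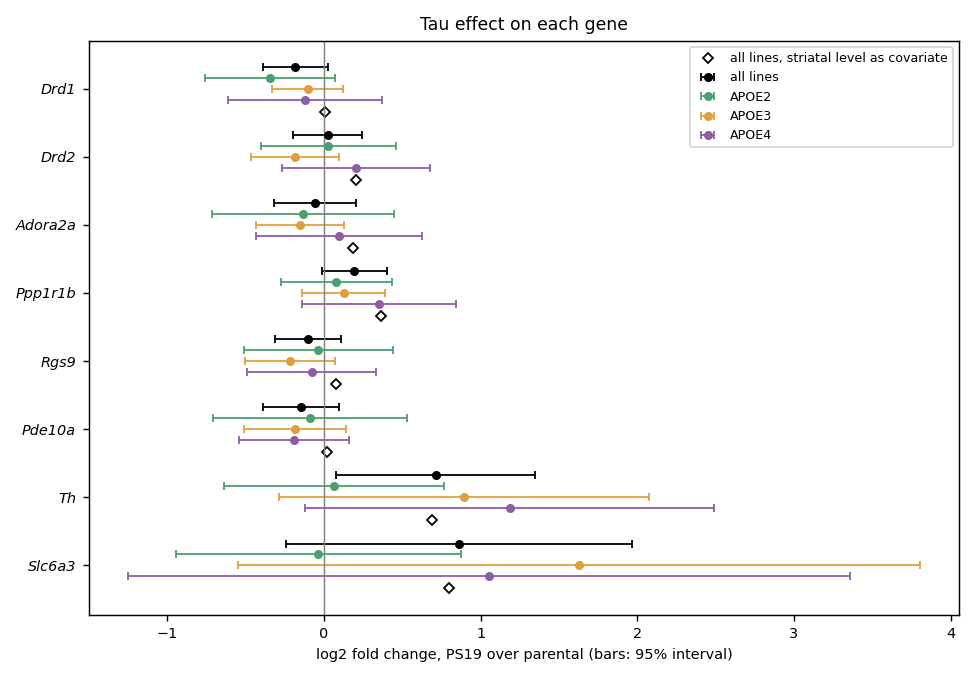
Log2 fold change of PS19 over parental mice for each gene, with 95% intervals, over all lines (black) and within the APOE2 (green), APOE3 (orange) and APOE4 (purple) lines, and over all lines with the level of striatal genes as covariate (open diamonds, drawn without an interval). The intervals drawn for the 6 striatal genes all include 0, and of the black ones only that of Th, from 0.08 to 1.35, lies on one side of 0, while the diamonds of Ppp1r1b (0.37), Drd2 (0.21) and Adora2a (0.19) are those of genes that passed with the covariate.

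The APOE comparisons asked whether the alleles differ from each other without or with tau. PS19 mice were taken at paralysis, which the paper reports came latest in PS/E3H mice. Females were in the E4H, PS/E2H and PS/E4H groups only. Allele, age at death and sex therefore cannot be told apart in the PS19 comparisons or in contrasts of the tau effect between lines. The 3 comparisons of parental lines share their mice pairwise, as do the 3 of PS19 lines. No member passed in any of them, against 0.178% of all genes called for E2H against E3H, 0.162% for E4H against E3H, 0.216% for E4H against E2H, 0.113% for PS/E2H against PS/E3H, 0.0197% for PS/E4H against PS/E3H and 0.119% for PS/E4H against PS/E2H. DESeq2 and limma passed none either. In the same order edgeR gave 0, 1, 1, 1, 0 and 0 members at an unadjusted p under 0.05, and DESeq2 the same counts. Drd2 was lower in E4H than in E3H mice (log2 fold change -0.23, SE 0.08, unadjusted p = 0.0179, adjusted p = 0.599), with 1 E4H mouse inside the E3H range. Ppp1r1b was -0.26 in E4H relative to E2H mice (SE 0.10, adjusted p = 0.373), and Drd1 was -0.34 in PS/E2H relative to PS/E3H mice (SE 0.12, adjusted p = 0.403). Slc6a3 was 1.96 higher on the log2 scale in E2H than in E3H mice (SE 0.94, adjusted p = 0.382), which became 4.51 (adjusted p = 0.0188) without E3H replicate 2.

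The tau effect was compared between lines by interaction, and no member differed. The test called 0% of all genes in each of the 3 interactions, and no member reached an unadjusted p under 0.05 in edgeR or DESeq2, and limma passed 0. The widest contrast was that of Slc6a3 between the APOE2 and APOE3 lines, -1.66 (SE 1.03, 95% interval -3.94 to 0.63, adjusted p = 0.859). For the 6 striatal genes the interaction estimates lay between -0.23 and 0.39 (Drd1, APOE2 against APOE3, and Drd2, APOE4 against APOE3). These intervals do not show that the lines respond alike.

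The spread between mice of the same group separated the genes into 2 sets. The SD of log2 CPM around the group means was 0.26 to 0.33 for the 6 striatal genes, where the median over 22863 tested genes was 0.25. It was 0.77 for Th and 1.48 for Slc6a3, and 98.6% of all tested genes had a smaller SD than Slc6a3. Among genes of similar level the striatal genes were also variable, with 94.99% (Drd1) to 99.3% (Ppp1r1b) of such genes below them. The spread of Slc6a3 was 2.19 among parental and 0.67 among PS19 mice, and that of Th 1.04 and 0.53. For Drd1, Drd2, Adora2a, Ppp1r1b and Rgs9 it was the other way round, as for Adora2a with 0.18 among parental and 0.40 among PS19 mice, and these differences in spread were not tested.

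Within groups the striatal genes varied together to different degrees. Over the 21 mice, as a description of deviations from group means, Pearson r for the 15 pairs of striatal genes ran from 0.33 (Ppp1r1b with Pde10a) to 0.94 (Drd2 with Rgs9), with a median of 0.81. Th and Slc6a3 had r = 0.96 with each other, and their 12 pairs with the striatal genes ran from -0.19 to 0.17. All values share a library per mouse, so a scaling error would move them together. The plot of the correlations shows the 2 sets as separate blocks.

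**Figure D2:**
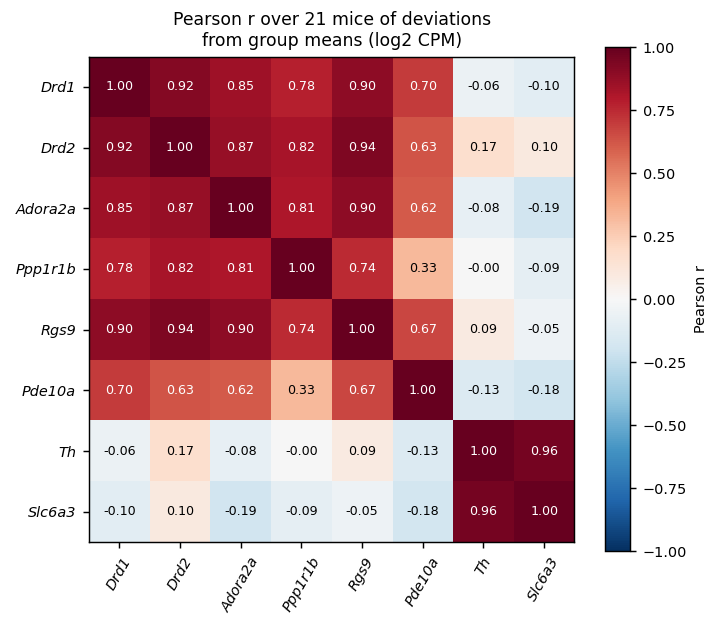
Pearson r between the 8 genes over 21 mice, computed on deviations of log2 CPM from the group means, with colour from -1 (blue) to 1 (red). The block of 6 striatal genes has r from 0.33 to 0.94, the block of Th and Slc6a3 has 0.96, and pairs between the blocks lie between -0.19 and 0.17.

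The genes most like each member, among 15761 genes with a mean of at least 1 CPM, were found by the same r over 21 mice. For Drd1 they were Drd2 (0.92), Rgs9 (0.90) and St8sia3 (0.89), for Drd2 they were Rgs9 (0.94), Drd1 (0.92) and Gng7 (0.88), and for Rgs9 they were Drd2 (0.94), Rxrg (0.93) and Adora2a (0.90). For Adora2a they were Pde1b (0.93), Syndig1l (0.92) and Gnal (0.92), and for Ppp1r1b Penk (0.93), Tac1 (0.90) and Gng7 (0.89). Pde10a was nearest to Scn4b (0.91), Pde7b (0.91) and Mme (0.89). Th was nearest to Slc6a3 (0.96), Sncg (0.91) and Chrna6 (0.90), and Slc6a3 to Th (0.96), Chrna6 (0.93) and Sncg (0.87). Gnal encodes the G protein subunit that couples the receptors encoded by Drd1 and Adora2a to adenylyl cyclase, and Chrna6 a nicotinic receptor subunit of dopamine neurons.

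**Figure D3:**
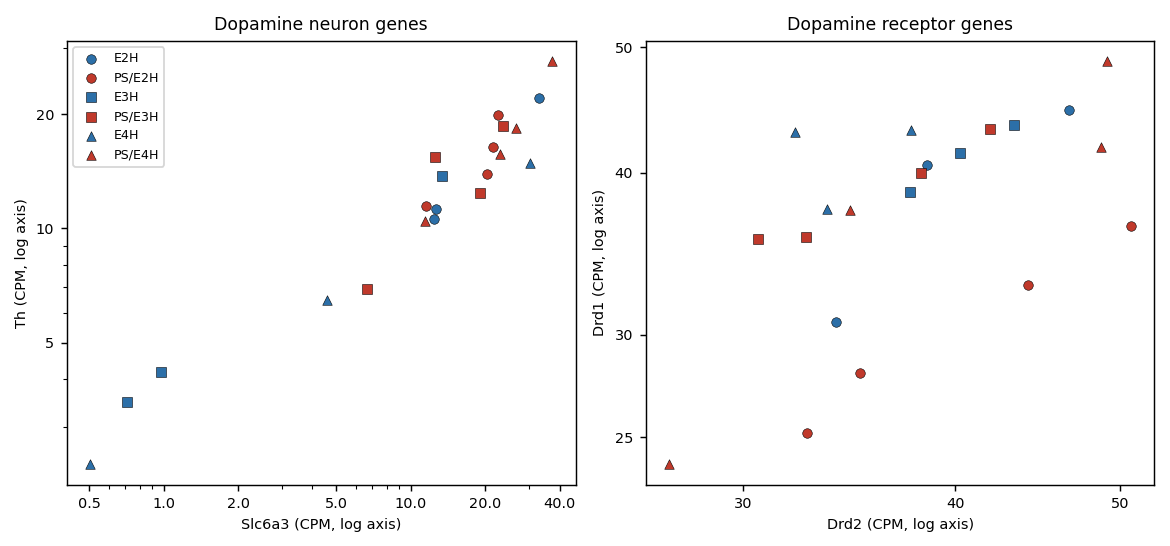
Slc6a3 against Th (left) and Drd2 against Drd1 (right) in each of the 21 mice, in CPM on log axes, with circles, squares and triangles for the APOE2, APOE3 and APOE4 lines, blue for parental and red for PS19 mice. Th and Slc6a3 fall on 1 line over all groups, with the lowest 4 mice all parental, and in the right panel all 4 PS/E2H mice lie low in Drd1 for their Drd2 level.

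The level of other regional genes per mouse was set beside the members to describe the dissection. The mean log2 CPM of 24 measured genes of striatal projection neurons, none of them a member, had r of 0.64 (Pde10a) to 0.94 (Adora2a) with the striatal members, and -0.21 and -0.28 with Th and Slc6a3. A list of 13 dopamine neuron genes had r of 0.90 with both Th and Slc6a3 and -0.12 to 0.18 with the striatal members. Genes of the thalamus (r 0.63 and 0.61) and the hypothalamus (0.59 for both) also went with Th and Slc6a3. Genes of the cortex (-0.65 and -0.48) and the olfactory bulb (-0.49 and -0.43) went against them. The mice that were rich in Th and Slc6a3 were thus often rich in genes of the thalamus and hypothalamus, and the part of dissection in this was not tested.

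Other dopamine neuron genes were higher in PS19 mice where Th and Slc6a3 did not pass. Of the 13 listed, 5 passed higher and 1 lower over all lines, where 11.4% of all tested genes were called higher and 9.63% lower. The median log2 fold change of the list was 0.67, and the median over all genes tested was -0.01. En1, a midbrain transcription factor, rose by 1.56 (SE 0.48, adjusted p = 0.0228), Ddc, the enzyme that turns L-DOPA into dopamine and also serves serotonin neurons, by 0.94 (SE 0.18, adjusted p = 0.000735), and Aldh1a1, an aldehyde dehydrogenase of ventral midbrain dopamine neurons that other cells express too, by 0.81 (SE 0.10, adjusted p = 4.12e-06). Ret, the receptor for the GDNF family of growth factors, rose by 0.56 (adjusted p = 0.0327) and Slc10a4, a vesicle protein, by 0.44 (adjusted p = 0.0411). Nr4a2, a transcription factor that cortical neurons also express, fell by 0.44 (SE 0.11, adjusted p = 0.00674). Slc18a2, the vesicular monoamine transporter, and Chrna6 stood at 0.44 and 0.72 without passing (adjusted p = 0.0708 and 0.131). The summed level of the list ran from 120 to 251 CPM in parental and from 185 to 295 CPM in PS19 mice, and the defining factors Pitx3 and Foxa2 were at 0 in at least 1 mouse of each kind.

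The hindbrain list moved in the same direction, in the fit over all lines that called 11.4% of all tested genes higher. Of its 8 genes 5 were tested, and Slc6a4, the serotonin transporter, and Tph2, the enzyme of serotonin synthesis in the raphe, passed higher (log2 fold change 3.26, SE 0.99, adjusted p = 0.0213, and 2.0, SE 0.68, adjusted p = 0.0388). Their summed list level ran from 0.624 to 33.1 CPM in parental and from 1.70 to 45.0 CPM in PS19 mice. Slc6a4 had 0 counts in at least 1 parental mouse and 25 counts or more in each PS19 mouse. The hindbrain list had r of 0.07 with Th and 0.09 with Slc6a3. Whether the PS19 forebrains were cut to hold more midbrain and hindbrain tissue was not tested.

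With the dopamine neuron list level as a covariate, an alternative added after Th and Slc6a3 had been seen, the pooled tau effect was -0.08 for Th (SE 0.16, adjusted p = 0.867) and -0.15 for Slc6a3 (SE 0.31, adjusted p = 0.867). The direction was thus reversed and the size was under 1 SE. The list was itself higher in PS19 mice, so a tau effect on dopamine neurons and a difference in tissue cannot be told apart by this fit.

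Genes of dopamine synthesis and breakdown and the other dopamine and adenosine receptors passed in the higher direction where they passed over all lines. That fit called 11.4% of all tested genes higher, so 1 or 2 genes of a short list lie near the background. Of 10 genes of synthesis and breakdown, Ddc, which also stands in the dopamine neuron list, and Maoa, a monoamine oxidase (0.19, SE 0.07, adjusted p = 0.0411), passed higher and none lower. Within lines 0, 2 and 3 passed higher for APOE2, APOE3 and APOE4, where 0.752%, 5.37% and 15.6% of all tested genes were called in either direction. Of 6 other dopamine and adenosine receptors, 3 adenosine receptors passed higher, Adora3 by 0.72 (SE 0.17, adjusted p = 0.00322), Adora2b by 0.34 (adjusted p = 0.0274) and Adora1 by 0.16 (adjusted p = 0.0117). Drd3, Drd4 and Drd5 did not pass, and Drd3 and Drd4 had a mean under 0.33 CPM. Of 8 striatal interneuron genes, Pvalb, a calcium-binding protein, passed higher (0.36, SE 0.09, adjusted p = 0.00496), while Chat, the acetylcholine synthesis enzyme, was at 0.31 (adjusted p = 0.131).

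Genes of the projection neurons other than the members were lower in PS19 mice in part. Of the 24 measured, 8 passed lower and 0 higher over all lines, with a median of -0.14 against -0.01 over all genes. That fit called 9.63% of all tested genes lower and 11.4% higher. Ano3, a membrane protein of the anoctamin family, fell by 0.46 (SE 0.10, adjusted p = 0.00312), Rgs14, a G protein regulator also found in the hippocampus, by 0.43 (SE 0.09, adjusted p = 0.00109), Chrm4, a muscarinic receptor of direct pathway neurons, by 0.41 (SE 0.09, adjusted p = 0.00203), and Bcl11b, a transcription factor of projection neurons of the striatum and cortex, by 0.34 (SE 0.06, adjusted p = 0.000513). Of the direct pathway genes Tac1 and Pdyn, both neuropeptide genes, stood at 0.03 and 0.14 and did not pass, and the indirect pathway peptide gene Penk was at 0.01 (adjusted p = 0.974). The summed level of the list ran from 2846 to 3357 CPM in parental and from 2240 to 3284 CPM in PS19 mice.

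Of 26 genes of receptor signalling downstream of dopamine and adenosine receptors, 7 passed lower and 0 higher, with a median of -0.09. The fit over all lines called 9.63% of all tested genes lower and 11.4% higher. Pde2a, a phosphodiesterase, fell by 0.23 (SE 0.06, adjusted p = 0.00630), and Adcy5, the adenylyl cyclase typical of the striatum, by 0.17 (SE 0.06, adjusted p = 0.0409). Arpp21 and Ptpn5, both striatum-enriched phosphatase pathway genes, were -0.19 and -0.18 (adjusted p = 0.0424 and 0.00452). Adcy5, Arpp21 and Ptpn5 stand in both lists. Of the lists of other cells and regions, over all lines, 8 of 8 microglia, 6 of 6 astrocyte, 4 of 6 oligodendrocyte and 2 of 5 choroid plexus genes passed higher, and 6 of 8 cortex, 4 of 8 hippocampus and 2 of 6 general neuron genes passed lower. Of 5 cerebellum and 5 pituitary genes 1 passed in each direction, and none of 6 thalamus, 8 hypothalamus and 4 olfactory bulb genes passed. The same shares of all tested genes stand beside these lists. The oligodendrocyte genes that passed within lines numbered 0 of 6 for APOE2, 6 of 6 for APOE3 and 5 of 6 for APOE4. Of all tested genes 0.752%, 5.37% and 15.6% were called there in either direction. The level of the oligodendrocyte list had r of 0.49 with Th and 0.39 with Slc6a3 over the 21 mice. The part of these lists in the results for the members was not tested.

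With the striatal list level as a covariate, which adjusts each mouse for the mean level of those genes, 3 members passed for tau over all lines, where this fit called 16.5% of all genes. Ppp1r1b was higher by 0.37 (SE 0.06, adjusted p = 0.000388), Drd2 by 0.21 (SE 0.07, adjusted p = 0.0476) and Adora2a by 0.19 (SE 0.06, adjusted p = 0.0273). The standard error went from 0.10 to 0.06 for Ppp1r1b and from 0.12 to 0.06 for Adora2a, and the direction of Adora2a was reversed. Drd1, Rgs9 and Pde10a were at 0.0061, 0.078 and 0.021. Within lines the same fit passed Ppp1r1b in the APOE4 line (0.41, SE 0.08, adjusted p = 0.00811) and no member in the other lines. Since 8 genes of the list were themselves lower in PS19 mice, a higher value here is relative to genes that fell.

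A ratio of 2 members within a mouse does not depend on library scaling or on how much striatum the sample holds, as far as both genes belong to the same tissue. Whether that condition held was not tested. Over the 21 mice the striatal members had r of -0.14 (Pde10a) to 0.55 (Ppp1r1b) with the hippocampus list. With the general neuron list r ran from -0.21 (Rgs9) to 0.31 (Ppp1r1b), and with the cortex list from -0.45 (Rgs9) to -0.10 (Ppp1r1b). All 15 pairs of striatal members and the pair Th and Slc6a3 were compared between PS19 and parental mice by a two-sided exact permutation test of tau labels within lines (42875 arrangements), adjusted over the 16 ratios. The ratios were added after the values of the members had been seen, so their p-values are descriptive. The ratio of Drd1 to Ppp1r1b was lower in PS19 mice by a mean log2 difference of -0.37 (adjusted p = 0.00522), with -0.41, -0.23 and -0.47 in the APOE2, APOE3 and APOE4 lines. Within these lines the exact permutation p was 0.143, 0.114 and 0.0286. E2H mice had ratios of CPM of 0.122, 0.0861 and 0.136, and PS/E2H mice 0.0865, 0.0811, 0.0960 and 0.0771. E3H mice had 0.127, 0.139 and 0.139, and PS/E3H mice 0.110, 0.121, 0.134 and 0.0990. E4H mice had 0.145, 0.148 and 0.145, and PS/E4H mice 0.101, 0.0959, 0.108 and 0.117. The APOE4 groups did not overlap, and in the other lines 1 or more mice did. This ratio passed in each of the 21 fits that left out 1 mouse. Its lowest values, 0.0861, 0.0811 and 0.0771, were those of E2H replicate 2 and PS/E2H replicates 2 and 4, the mice highest on the second principal component. The part of other differences between libraries in the ratios was not tested.

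The ratio of Drd1 to Drd2 differed by -0.20 over the lines (adjusted p = 0.0300) but not in 1 direction. E2H mice had 0.959, 0.902 and 1.05 and PS/E2H mice 0.717, 0.743, 0.796 and 0.770. E3H mice had 1.03, 1.03 and 1.01 and PS/E3H mice 1.16, 1.09, 1.03 and 1.05. E4H mice had 1.14, 1.34 and 1.12 and PS/E4H mice 0.877, 0.860, 0.994 and 1.08. In each line the groups did not overlap, with PS19 mice lower in the APOE2 line (-0.36) and in the APOE4 line (-0.33). In the APOE3 line they were higher by 0.084, and the groups all but touched, at 1.0296 (highest E3H) and 1.032 (lowest PS/E3H). The exact p within lines was 0.0286, 0.0571 and 0.143 for APOE2, APOE4 and APOE3, where 0.0286 is the smallest that 4 mice against 3 allow. The pooled ratio no longer passed without E2H replicate 1 (adjusted p = 0.0536), E2H replicate 3 (0.0627) or E4H replicate 2 (0.0535). Ratios that did not pass also separated within a line. Drd1 to Rgs9 did so in the APOE2 line (E2H from 0.595, PS/E2H up to 0.571). Ppp1r1b to Pde10a did so in the APOE4 line (E4H up to 1.72, PS/E4H from 1.80). The dopamine neuron list had r of -0.03 with Drd1 and 0.18 with Drd2, and its part in the ratio of Drd1 to Drd2 was not tested.

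The other 3 of the 5 ratios that passed follow. Adora2a to Ppp1r1b differed by -0.26 on the log2 scale (adjusted p = 0.0151), with -0.26 in each line, and its mice ranged from 0.120 to 0.156 among parental and from 0.0783 to 0.140 among PS19 mice. Ppp1r1b to Rgs9 was higher by 0.29 (adjusted p = 0.0211), with parental mice from 4.25 to 6.91 and PS19 mice from 4.77 to 7.41. Both lost their call without E2H replicate 1 (adjusted p = 0.0536) or E2H replicate 3 (0.0627). Drd2 to Rgs9 was higher by 0.13 (adjusted p = 0.0373) and passed in 9 of the 21 fits with 1 mouse left out. Adora2a to Ppp1r1b did not overlap in the APOE4 line (E4H from 0.139, PS/E4H up to 0.130) or the APOE3 line (0.1296 and 0.127). Nor did Ppp1r1b to Rgs9 in the APOE4 line (E4H up to 4.41, PS/E4H from 5.32) or the APOE3 line (4.54 and 4.77). Drd2 to Rgs9 did not overlap in the APOE4 line (E4H up to 0.573, PS/E4H from 0.615). Of the 5 ratios that passed, 3 hold Ppp1r1b and 2 hold Drd1, so they are not independent of each other.

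The ratio of Th to Slc6a3 differed by -0.85 in PS19 mice without passing (adjusted p = 0.0690). It was 4.28, 1.03 and 4.89 in E3H mice and 1.41, 4.74 and 0.490 in E4H mice, and it was above 1 in the 4 mice with least of both genes. In E2H and PS19 mice it stayed between 0.649 and 1.24. The ratio passed without E3H replicate 2 (-1.09, adjusted p = 0.0318) or E4H replicate 3 (-1.12, adjusted p = 0.0229).

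**Figure D4:**
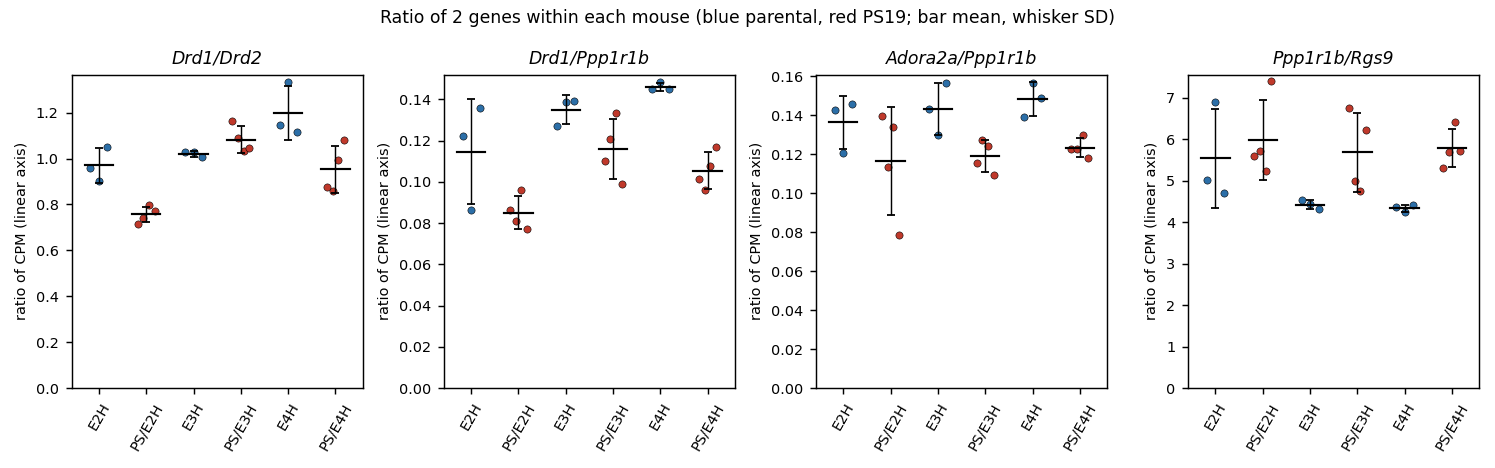
Ratio of CPM of a pair of genes within each mouse for 4 of the ratios that passed, on linear axes that start at 0, with blue points for parental and red for PS19 mice, bars for group means and whiskers for the SD. Drd1 to Drd2 does not overlap between PS19 and parental mice in any line, lower in PS/E2H and PS/E4H mice. It is slightly higher in PS/E3H mice, where the groups all but touch. Drd1 to Ppp1r1b, Adora2a to Ppp1r1b and Ppp1r1b to Rgs9 do not overlap in the APOE4 line. Adora2a to Ppp1r1b and Ppp1r1b to Rgs9 do not overlap in the APOE3 line either.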

How the data were processed

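The authors extracted RNA from frozen, pulverized forebrains and made stranded poly(A) libraries. Per the labels the reads were trimmed with cutadapt, aligned to GRCm38.p5 with HISAT2 and assembled with StringTie, and DESeq2 and edgeR are named too (tool versions are not given in the sources used here). The authors deposited whole-number counts per gene for 55401 genes, without normalization, and FPKM values from StringTie for 37538 genes. How the counts were derived from StringTie, and whether strand was used, is not given in the sources used here. Each mouse was placed in its group by its label.

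Counts were fitted with edgeR 4.0.16 in R 4.3.3 (TMM, filterByExpr with a minimum count of 10 and a minimum total of 15, quasi-likelihood test) in 13 comparisons of 20202 to 22863 genes: 3 of tau within a line, 1 of tau over all mice with APOE line as covariate, 6 of APOE alleles and 3 interactions. The study compared its groups with DESeq2. Intervals are the estimate plus or minus the t quantile at the residual degrees of freedom times the SE. Alternatives were DESeq2 1.42.0, RLE normalization, no filter, a replicate block, limma 3.58.1 on log2(FPKM + 1) for genes with a mean of at least 0.1 FPKM, list levels as covariates, a fold change of at least 2, and each mouse left out. The code was tested on simulated counts. No pair of mice within a group held identical counts, and all 27 such pairs differed by more than sampling noise (chi-square per gene of 19.2 or more). The labels do not say whether mice were littermates.

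The 8 members and the lists (171 genes, 1 without a match) were chosen with earlier results of these data known. The text names all members, up to 4 passing genes per list of the dopamine and signalling system and other markers, and the 3 genes most like each member. Genes named beside these were chosen after their values were seen, as were the ratios and the dopamine neuron covariate. Symbols and positions come from GENCODE M21 and start regions from RefSeq. Intervals cover counting and mouse error only, with 3 or 4 mice a group.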

Additional observations from a re-analysis of the deposited data

Results flagged for a closer look

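The tau difference in the log2 ratio of Drd1 to Drd2 was drawn out because its mean did not have the same sign in each line. Every PS/E2H mouse lay below every E2H mouse (mean difference -0.36), and every PS/E4H mouse lay below every E4H mouse (-0.33). In the APOE3 line the difference was small (0.084, p = 0.143 in the exact permutation test). There the highest E3H mouse had a ratio of 1.0296 and the lowest PS/E3H mouse 1.032, so the groups all but touched. How often groups of 3 and 4 mice separate in this way by chance was not computed. Groups also separated within a line for other ratios, among them Drd1 to Rgs9 in the APOE2 line, which did not pass. The difference between lines in this ratio was not tested. The interactions of Drd1 and Drd2 alone passed in none of the 3 pairs of lines. No member had a mouse far from the others of its group by Dixon's criterion in the 24 combinations of a gene and a group of 4 mice, where chance flags about 1 in 20.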

How the results depend on the processing

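The count of 0 members passing was the same with DESeq2, RLE normalization, no filter on low counts, limma on FPKM, a fold change of at least 2 and the dopamine neuron covariate in all comparisons where each was run. It became 3 over all lines and 1 for PS/E4H against E4H with the striatal gene level as covariate. Leaving out 1 mouse gave 0 to 2 members for PS/E3H against E3H and for PS/E4H against E4H, and 0 to 1 over all lines and for E2H against E3H. The 5 ratios that passed became 1 to 7. With the replicate number as a replicate block no member passed in any comparison. The numbers do not pair the mice (r of -0.05 to 0.09 for same-numbered deviations over 9 pairs, with 3 best with their own number), and the block reversed Adora2a (0.013 over all lines and 0.030 in the APOE2 line), and in the APOE2 line Rgs9 (0.094), Pde10a (0.035) and Slc6a3 (0.061).

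Under these alternatives the direction of some values turned. With the striatal covariate these were Drd1 (0.0061 over all lines and 0.011 in APOE3), Adora2a (0.19 over all lines, 0.29 in APOE2, 0.079 in APOE3), Rgs9 (0.078 over all lines, 0.33 in APOE2), Pde10a (0.021 over all lines, 0.24 in APOE2, 0.037 in APOE3) and Slc6a3 (0.088 in APOE2). With the dopamine neuron covariate, added after seeing the data, they included the largest estimates, those of Th and Slc6a3, and were Drd2 (-0.058 over all lines, -0.0024 in APOE2), Pde10a (0.022 in APOE4), Th (-0.077 over all lines, -0.11 in APOE3, -0.32 in APOE4) and Slc6a3 (-0.15 over all lines, -1.03 in APOE4). With limma on FPKM they were Drd2 over all lines (-0.0039) and Slc6a3 in APOE2 (0.075). The cause was not tested.

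Leaving out 1 mouse, the tau log2 fold change ran in the APOE2 line from -0.10 to 0.16 for Drd2, -0.33 to 0.044 for Adora2a, -0.0045 to 0.17 for Ppp1r1b, -0.16 to 0.092 for Rgs9, -0.31 to 0.16 for Pde10a, -0.12 to 0.50 for Th and -0.27 to 0.60 for Slc6a3. In the APOE4 line it ran from -0.26 to 0.052 for Drd1, -0.061 to 0.26 for Adora2a and -0.19 to 0.059 for Rgs9, and over all lines from -0.020 to 0.056 for Drd2. With 3 or 4 mice a group, the 95% intervals of the pooled estimates of the 6 striatal genes all included 0.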
